A study of Homo sapiens with 6 samples.

Results

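The genes of the proteasome were followed in SH-SY5Y cells, a human neuroblastoma line used as a neuronal cell model, after knockdown of PSF, an RNA-binding protein that is encoded by SFPQ. The members are the protein-coding genes whose symbols begin with PSMA to PSMG and end in a number, and 46 of the 21301 genes in the table (14644 of them protein-coding) meet this rule. All 46 had enough counts for edgeR's filter and were tested. PSMA8 and PSMB11, which belong to the same families, are not analysed here.

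The 26S proteasome is the ATP-dependent protease that degrades proteins tagged with ubiquitin. Its 20S core is a barrel of alpha rings, which form the gate, and beta rings, which hold the proteolytic sites, and its 19S cap holds a ring of ATPases that unfold the substrate together with non-ATPase subunits that bind and trim the ubiquitin chain. Other activators can take the place of the cap, dedicated chaperones assemble the particle, and interferon gamma induces alternative catalytic beta subunits for antigen processing, while transcription of the standard subunit genes is raised by NRF1 (NFE2L1) when proteasome activity is short.

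The siControl group holds 3 libraries of SH-SY5Y cells treated with a control siRNA and the siPSF group 3 libraries of the same line treated with an siRNA against PSF at 10 nM, and all were collected at 72 h. The study's methods name only siPSF #2 for this experiment, so loss of PSF and any other action of that siRNA cannot be told apart. The study calls the libraries of each group biological replicates. Poly(A) RNA was sequenced, and levels are given as CPM, the count of a gene scaled to a common library size, unless FPKM, which also divides by the exon length of the gene, is named.

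The 6 libraries held between 101540520 and 132420931 counts. SFPQ was between 356 and 401 CPM in the siControl libraries and between 165 and 209 CPM in the siPSF libraries, and the log2 fold change, written log2 change from here on, was -0.99 with a standard error (SE) of 0.10. The adjusted p was 9.5e-05 (the quasi-likelihood test of edgeR, adjusted after Benjamini-Hochberg over 19694 genes). All 12 noradrenergic neuroblastoma markers were measured, with a summed level of 6107 to 6852 CPM in siControl and 5564 to 6810 CPM in siPSF, although TH, the first enzyme of catecholamine synthesis, was below 1 CPM in every library. Within this list edgeR called 2 genes lower, DBH (log2 change -0.68, adjusted p = 0.0024) and TH (-1.20, adjusted p = 0.025), and 1 higher, GATA3 (0.30, adjusted p = 0.032). Of 12 markers of other cells 9 were measured, with a summed level of 88.7 to 93.28 CPM in siControl and 65.67 to 70.86 CPM in siPSF, most of it FN1, a matrix protein gene that was called lower (log2 change -0.60, edgeR, adjusted p = 8.5e-04). The other members of that list did not follow the sum, since 6 of the 9 log2 changes were above 0, the median was 0.35 and EPCAM, an epithelial adhesion gene, was called higher (log2 change 0.86, edgeR, adjusted p = 0.014). The part of either list in the results was not tested. In bulk RNA, fewer cells of a type and less RNA per cell cannot be told apart.

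Of the 46 members, 6 were higher after siPSF and 0 were lower (edgeR, adjusted p under 0.05), while 6.65% of all tested genes were called higher and 8.27% were called lower. The genes that rose were the 20S alpha subunit genes PSMA3 and PSMA1, the 19S lid subunit gene PSMD3, the activator gene PSME1 and the assembly chaperone genes PSMG2 and PSMG4. The called share was 13.0% of the members, against 7.69% called higher and 4.65% called lower of the 11646 protein-coding genes that span less than 100 kb. At an unadjusted p under 0.05, 15 members were higher (32.6%) and 1 was lower (2.17%), beside 14.4% and 15.4% of all tested genes and 17.1% and 10.3% of the protein-coding genes under 100 kb. Of the 42 members under 100 kb, 5 were called higher (11.9%) and 0 lower. At an unadjusted p under 0.05, 14 of these were higher (33.3%) and 0 lower. Another tool, DESeq2, called 7 members higher and 0 lower.

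The changes were small. The log2 changes of the members ran from -0.22 (PSME4) to 0.92 (PSMB9), with a median of 0.08 beside 0.01 for all genes tested and 0.05 for the protein-coding genes under 100 kb. Of the 46 values, 33 were above 0 and 13 were below, which makes 71.7% positive beside 51.6% of all genes tested and 58.2% of the protein-coding genes under 100 kb. The siPSF libraries lay above all siControl libraries in 15 members (32.6%, with 16.7% of all tested genes and 19.6% of protein-coding genes under 100 kb) and below them in 3 members (6.52%, with 17.8% of all tested genes and 12.2% of protein-coding genes under 100 kb). In the 42 members under 100 kb these counts were 14 (33.3%) and 2 (4.76%). Among these 42, 30 log2 changes were above 0 and the median was 0.09. The plot of fold changes by role shows the spread within each group.

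**Figure D1:**
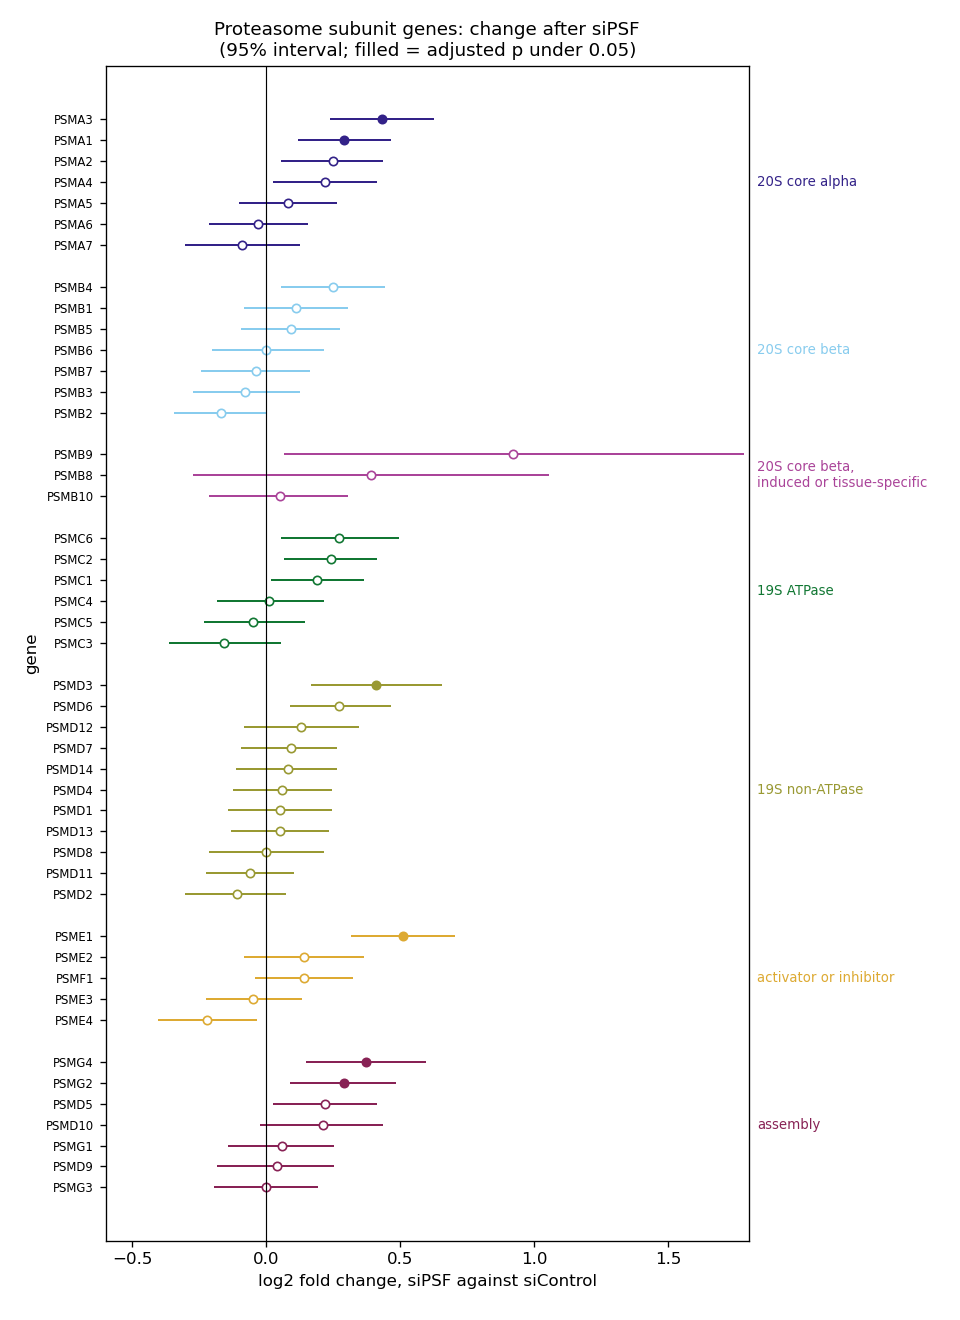
The log2 change of each of the 46 members, siPSF against siControl, is plotted with its 95% interval, grouped by role, with filled points for an adjusted p under 0.05 (edgeR). All 6 filled points lie right of 0, and the 2 widest intervals belong to the scarcely expressed PSMB8 and PSMB9.

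Per library, the median member relative to its siControl mean was at a log2 value of 0.05, 0.02 and -0.08 in siControl libraries 1, 2 and 3 and at 0.13, 0.11 and 0.03 in siPSF libraries 1, 2 and 3. SiPSF library 3 therefore lay below siControl library 1, and the groups overlapped on this measure. The summed level of all members was 6269, 6208 and 5671 CPM in siControl and 6356, 6416 and 6063 CPM in siPSF, and these groups overlapped too. The sign of the members' median differed between the scales, as did the median of all genes, and the members' median stayed above the latter. On log2(FPKM + 0.5) with limma, 3 members were called higher and 0 lower, and 29.7% of all calls were higher in place of 44.6%. After FPKM was rescaled to the same sum in each library, a step chosen after the data were seen, 2 members were called higher and 6 lower, and 12.3% of all calls were higher. Of the 45 members with a value, 23 were above 0 on FPKM and 15 on rescaled FPKM. The median of all genes was 0.01 in edgeR, -0.06 on FPKM and -0.16 on rescaled FPKM, and the median of the members stood above it by 0.07, 0.06 and 0.05. These medians are over 19694, 14830 and 14827 genes, since limma was run on genes with a mean of at least 0.5 FPKM. The set of genes and the scale thus changed together. Values on the FPKM scales are to be read against these medians.

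The calls also depended on single libraries. Leaving out siControl library 1, 2 or 3 left 4, 1 or 2 members called higher, and leaving out siPSF library 1, 2 or 3 left 2, 3 or 6. PSME1 was called in all 6 of these fits, PSMA3 in 5, PSMD3 in 2, PSMG4 and PSMA1 in 1 each and PSMG2 in 0. No member was called lower in any of them.

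Promoter sequence is shown for the 6 genes that rose, since these genes carry the result and their upstream bases can be set beside each other. Each run is the 150 bases before a RefSeq start (GRCh38.p14), written 5′ to 3′ on the strand of the gene, and capitals mark a match to a motif named below. PSMG2 has 2 starts in the table, and the starts shown for PSMA1, PSMG4 and the second line of PSMG2 lie inside the span of the gene.
PSME1, chr14:24136044-24136193, plus strand: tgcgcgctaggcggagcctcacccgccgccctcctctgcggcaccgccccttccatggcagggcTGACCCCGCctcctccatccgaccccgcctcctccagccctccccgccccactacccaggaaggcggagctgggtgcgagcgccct
PSMA3, chr14:58244693-58244842, plus strand: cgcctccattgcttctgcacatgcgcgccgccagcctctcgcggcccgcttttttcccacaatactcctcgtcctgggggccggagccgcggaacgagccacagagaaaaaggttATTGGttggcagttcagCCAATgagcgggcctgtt
PSMD3, chr17:39980657-39980806, plus strand: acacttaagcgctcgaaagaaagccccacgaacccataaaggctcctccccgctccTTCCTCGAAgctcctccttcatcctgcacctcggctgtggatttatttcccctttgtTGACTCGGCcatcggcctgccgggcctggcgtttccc
PSMG4, chr6:3258797-3258946, plus strand: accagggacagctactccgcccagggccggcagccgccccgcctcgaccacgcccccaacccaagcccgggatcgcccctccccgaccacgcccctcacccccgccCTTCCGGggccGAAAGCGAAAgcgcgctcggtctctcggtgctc
PSMA1, chr11:14520387-14520536, minus strand: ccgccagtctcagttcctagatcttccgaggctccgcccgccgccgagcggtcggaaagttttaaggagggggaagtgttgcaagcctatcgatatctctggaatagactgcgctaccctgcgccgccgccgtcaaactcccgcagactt
PSMG2, chr18:12658588-12658737, plus strand: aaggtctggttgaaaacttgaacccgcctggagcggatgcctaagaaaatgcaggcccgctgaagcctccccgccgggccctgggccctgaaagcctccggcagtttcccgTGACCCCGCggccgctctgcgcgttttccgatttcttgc
PSMG2, chr18:12702892-12703041, plus strand: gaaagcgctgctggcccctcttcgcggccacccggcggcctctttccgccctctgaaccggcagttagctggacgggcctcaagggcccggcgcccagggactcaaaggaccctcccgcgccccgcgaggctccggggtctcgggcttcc

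Matches to 5 motifs were searched on both strands over the 250 bases before each start, and 40 of the 46 members have an entry, with 49 starts between them. The antioxidant response element (TGACNNNGC), the kind of site that NRF1 and NRF2 bind with small MAF proteins, was present before 13 of the 49 member starts (26.5%) and 10.9% of all 35116 starts. PSME1, PSMD3 and PSMG2, 3 of the 6 genes that rose, hold it, beside 13 of all 40 member genes with an entry. The CCAAT box (CCAAT), bound by NF-Y, was before 18 member starts (36.7%, with 32.0% of all), among them those of PSMA3 and PSMD3. The match of PSMD3 lies upstream of the printed run. The ETS motif (CCGGAAG) was before 10 member starts (20.4%, with 8.52% of all), and of the genes that rose PSMG4 holds it. The interferon-stimulated response element (GAAA and GAAA with 2 bases between them) was before 5 member starts (10.2%, with 3.02% of all), PSMG4 among them, and the gamma-activated site (TTCNNNGAA) before 6 (12.2%, with 6.57% of all), PSMD3 among them. The matches in the printed runs do not overlap each other. The run of PSMA1 and the second run of PSMG2 hold none of these letters.

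The 7 alpha subunit genes of the 20S core, PSMA1 to PSMA7, build the outer rings that gate the barrel. The counts of this and each later group are to be read beside the shares over all tested genes given above. PSMA3 and PSMA1 were called higher and 0 alpha genes were called lower (edgeR, and likewise 2 and 0 in DESeq2, with 4 higher and 0 lower at an unadjusted p under 0.05), and 4 of the 7 had siPSF libraries above all siControl libraries. The median log2 change was 0.22 and the range -0.09 to 0.43. On rescaled FPKM the median was 0.06, with 0 called higher and 1 lower, but relative to all genes it was 0.22 on that scale and 0.21 in edgeR. The summed level of the 7 genes was 1006, 942.6 and 868.5 CPM in siControl and 1005, 980.6 and 928.9 CPM in siPSF, so the groups overlapped in the sum.

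PSMA3 (gene ID 5684, chr14:58244843-58272004) encodes the alpha 7 subunit. Its level was 40.2, 35.7 and 37.0 CPM in siControl libraries 1 to 3 and 51.3, 48.7 and 51.8 CPM in siPSF libraries 1 to 3. No siControl library reached the level of any siPSF library. The mean rose from 37.6 ± 2.30 to 50.6 ± 1.64 CPM (SD, n = 3 each). This was a log2 change of 0.43 (SE 0.09, 95% interval 0.24 to 0.62, edgeR, adjusted p = 0.0070). The call was lost without siControl library 2 (adjusted p = 0.050) and on rescaled FPKM, where the log2 change was 0.23 (limma, adjusted p = 0.098). PSMA3 overlaps the antisense gene PSMA3-AS1, which had a log2 change of 0.20 (edgeR, adjusted p = 0.20) with means of 45.9 and 52.6 CPM. No source states how strand entered the counting, so reads of the 2 genes may not be told apart.

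PSMA1 (gene ID 5682, chr11:14504876-14643662) encodes the alpha 6 subunit. Its level was 63.0, 60.9 and 58.6 CPM in siControl and 73.8, 75.9 and 73.5 CPM in siPSF. The libraries within each group lay close together, and the groups stood apart. The log2 change was 0.29 (SE 0.08, 95% interval 0.12 to 0.46, edgeR, adjusted p = 0.028). The call was kept without siPSF library 3 and lost without each of the other libraries, with an adjusted p of up to 0.10, and on rescaled FPKM the log2 change was 0.10 (limma, adjusted p = 0.36).

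PSMA7, which encodes the alpha 4 subunit, had the lowest log2 change of the alpha genes. Its level was 386, 351 and 312 CPM in siControl and 346, 339 and 300 CPM in siPSF. The groups overlapped, and the log2 change was -0.09 (SE 0.10, 95% interval -0.30 to 0.12, edgeR, adjusted p = 0.58). The other 4 alpha genes had log2 changes from -0.03 (PSMA6) to 0.25 (PSMA2), and none of them passed the test.

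**Figure D2:**
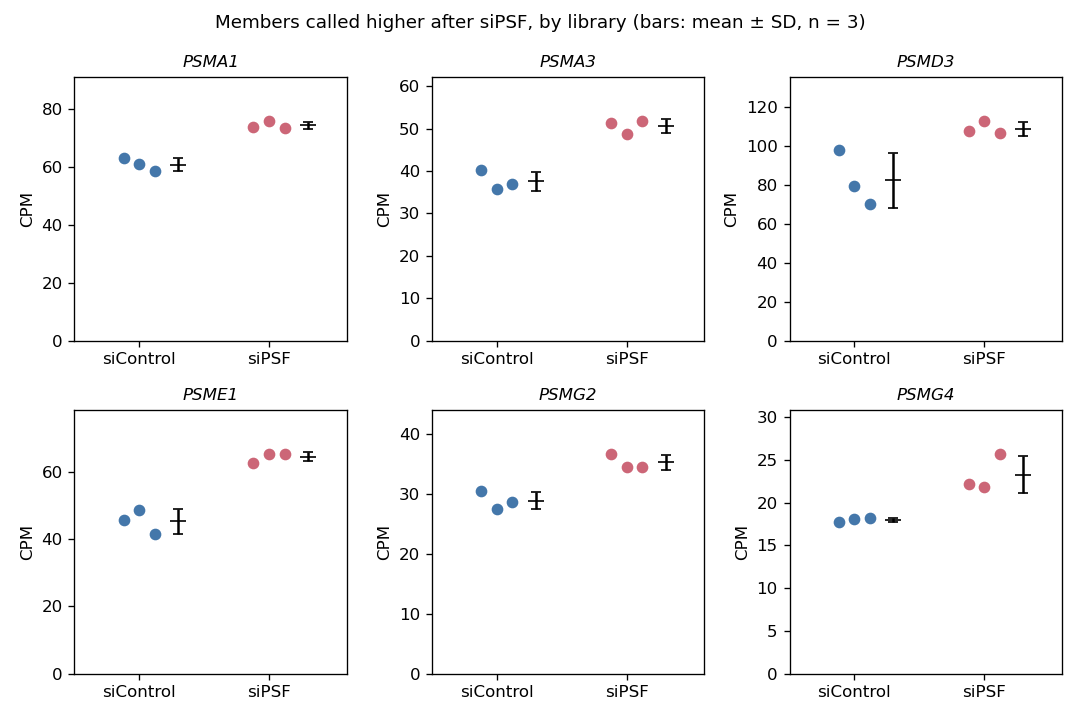
The level in CPM of the 6 members called higher is plotted for each siControl library (blue) and siPSF library (red), with the mean and SD (n = 3) beside them and each axis starting at 0. In every panel the siPSF points lie above the siControl points, and in PSMD3 siControl library 1, at 97.9 CPM, stands apart from the other siControl libraries and near the lowest siPSF library, at 107 CPM.

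The 7 standard beta subunit genes, PSMB1 to PSMB7, build the inner rings. None was called in either direction by edgeR, by DESeq2 or by limma on FPKM, 1 was higher and 0 lower at an unadjusted p under 0.05, and limma on rescaled FPKM called 0 higher and 2 lower. The median log2 change was 0.00 and the range -0.17 to 0.25, and the median was -0.07 on FPKM and -0.19 on rescaled FPKM. Relative to all genes the beta median was -0.01 in edgeR and on FPKM and -0.03 on rescaled FPKM, and the summed level was 1355, 1401 and 1214 CPM in siControl and 1408, 1453 and 1349 CPM in siPSF.

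PSMB5, PSMB6 and PSMB7 encode the catalytic subunits with chymotrypsin-like, caspase-like and trypsin-like activity. PSMB5 was at 195, 212 and 182 CPM in siControl and 207, 216 and 206 CPM in siPSF, with a log2 change of 0.09 (95% interval -0.09 to 0.27, edgeR, adjusted p = 0.50). PSMB6 was at 117, 118 and 100 CPM in siControl and 114, 120 and 102 CPM in siPSF, a difference with a 95% interval from -0.20 to 0.21 in log2 units (edgeR, adjusted p = 0.98). PSMB7 was at 202, 210 and 174 CPM in siControl and 196, 200 and 174 CPM in siPSF, with a log2 change of -0.04 (95% interval -0.24 to 0.16, edgeR, adjusted p = 0.82). The groups overlapped in each of the 3 catalytic genes. The bound farthest from 0 among these 3 intervals was 0.27.

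PSMB4 and PSMB2, structural beta subunits, stood at the ends of the range. PSMB4 was at 424, 434 and 374 CPM in siControl and 487, 507 and 471 CPM in siPSF. All siPSF libraries lay above the siControl libraries, and the log2 change was 0.25 (SE 0.09, 95% interval 0.06 to 0.44, edgeR, adjusted p = 0.073). PSMB2 was at 130, 136 and 128 CPM in siControl and 113, 112 and 124 CPM in siPSF. These groups did not overlap either, with the siPSF libraries below, and the log2 change was -0.17 (SE 0.08, 95% interval -0.34 to 0.00, edgeR, adjusted p = 0.18). On rescaled FPKM PSMB2 was called lower, at -0.36 (limma, adjusted p = 0.020).

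The interferon-induced catalytic subunit genes PSMB8, PSMB9 and PSMB10, which replace PSMB5, PSMB6 and PSMB7 in the immunoproteasome, were scarce. Per length, PSMB8 reached 0.45%, 0.168% and 0.281% of the FPKM of PSMB5 in siControl and 0.324%, 0.399% and 0.394% in siPSF. PSMB9 reached 0.0656%, 0.057% and 0.068% of the FPKM of PSMB6 in siControl and 0.09%, 0.113% and 0.181% in siPSF. PSMB10 was the most abundant of them, at 8.28%, 7.06% and 7.38% of the FPKM of PSMB7 in siControl and 7.39%, 7.64% and 9.24% in siPSF.

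None of the 3 induced genes was called by edgeR or DESeq2, and 1 was higher at an unadjusted p under 0.05. Limma left out PSMB9 and called 0 of the 2 with a value. PSMB9 had 12, 12 and 11 counts in siControl and 15, 18 and 23 counts in siPSF. The groups did not overlap, and the log2 change of 0.92 (SE 0.39, 95% interval 0.07 to 1.78, edgeR, adjusted p = 0.14) was the highest of all members at the lowest level of all members. PSMB8 was at 0.986, 0.435 and 0.556 CPM in siControl and 0.724, 0.985 and 0.882 CPM in siPSF. The highest value was in siControl library 1, so the groups overlapped, and the log2 change was 0.39 (95% interval -0.27 to 1.05, edgeR, adjusted p = 0.42). It was 0.80 without siControl library 1 (adjusted p = 0.087) and 0.15 without siControl library 2 (adjusted p = 0.82). PSMB10 was at 16.6, 14.7 and 12.8 CPM in siControl and 14.4, 15.2 and 16.0 CPM in siPSF, with a log2 change of 0.05 (95% interval -0.21 to 0.30, edgeR, adjusted p = 0.83).

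The balance of induced to standard catalytic subunit was tested as the log2 ratio of PSMB8 to PSMB5 in FPKM. It was -7.80, -9.22 and -8.47 in siControl and -8.27, -7.97 and -7.99 in siPSF. The means were -8.50 ± 0.71 and -8.08 ± 0.17 (SD, n = 3 each), and the difference of 0.42 did not pass a two-sided exact permutation test (p = 0.4), whose smallest possible p with 3 against 3 libraries is 0.1. Without siControl library 1 the difference was 0.77, and without siControl library 2 it was 0.06. By GENCODE gene spans, PSMB9 overlaps PSMB8 by 544 bases and TAP1 by 8608 bases, on opposite strands. Their RefSeq spans do not overlap (PSMB8 chr6:32840717-32844679, TAP1 chr6:32845209-32853704, PSMB9 chr6:32854192-32859851). Whether reads of these genes were shared was not tested.

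**Figure D3:**
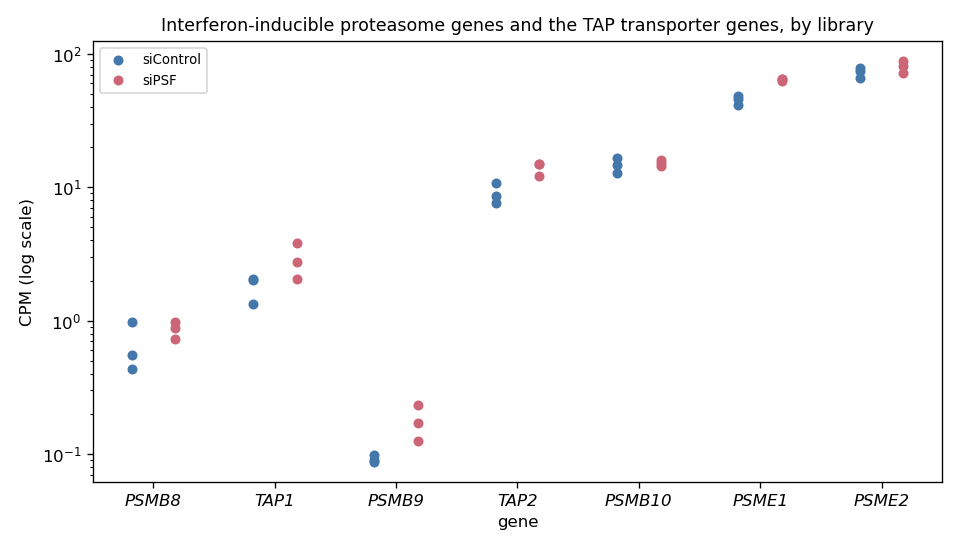
The level in CPM (log axis) of the interferon-inducible proteasome genes and of the TAP transporter genes is plotted for each siControl library (blue) and siPSF library (red). PSMB9 lies between 0.0873 and 0.233 CPM and PSMB8 between 0.435 and 0.986 CPM. In PSMB9, PSME1 and TAP2 all siPSF points lie above all siControl points.

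In the 19S cap, the 6 ATPase genes PSMC1 to PSMC6 encode the ring that unfolds substrates and opens the gate. None was called by edgeR, DESeq2 or limma on FPKM, 3 were higher and 0 lower at an unadjusted p under 0.05, and limma on rescaled FPKM called 0 higher and 1 lower. The median log2 change was 0.10 and the range -0.16 to 0.27, and the median was -0.02 on FPKM and -0.14 on rescaled FPKM. It stood above all genes by 0.09 in edgeR, 0.03 on FPKM and 0.02 on rescaled FPKM. The siPSF libraries lay above all siControl libraries in 3 genes, PSMC1, PSMC2 and PSMC6. PSMC6 was at 46.3, 37.4 and 42.8 CPM in siControl and 52.3, 48.1 and 52.3 CPM in siPSF, with a log2 change of 0.27 (SE 0.10, 95% interval 0.06 to 0.49, edgeR, adjusted p = 0.082). PSMC3 was at 184, 184 and 160 CPM in siControl and 163, 169 and 142 CPM in siPSF, with a log2 change of -0.16 (SE 0.09, 95% interval -0.36 to 0.05, edgeR, adjusted p = 0.30), and its groups overlapped. On rescaled FPKM PSMC3 was called lower, at -0.35 (limma, adjusted p = 0.032). Reads may also be shared with pseudogenes, of which PSMC1P1 held 539 to 682 counts, or 5.37% to 6.51% of those of PSMC1, and PSMC6P1 0.631% to 1.64% of those of PSMC6.

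Of the 11 non-ATPase genes of the cap, which encode ubiquitin receptors, scaffold subunits and the deubiquitinase PSMD14, PSMD3 was called higher and 0 were called lower (edgeR), with 2 higher and 0 lower at an unadjusted p under 0.05 and 2 and 0 called by DESeq2. The median log2 change was 0.06 and the range -0.11 to 0.41, and the median was -0.01 on FPKM and -0.13 on rescaled FPKM, or 0.05, 0.04 and 0.03 above all genes on the 3 scales. Limma called 0 in either direction on FPKM, and 0 higher and 1 lower on rescaled FPKM.

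PSMD3 (gene ID 5709, chr17:39980807-39997959) encodes a scaffold subunit of the lid. Its level was 97.9, 79.5 and 70.2 CPM in siControl and 108, 113 and 107 CPM in siPSF. The siControl libraries were spread more widely than the siPSF libraries, and siControl library 1 lay close to them. The mean rose from 82.5 ± 14.1 to 109 ± 3.57 CPM (SD, n = 3 each). This was a log2 change of 0.41 (SE 0.11, 95% interval 0.17 to 0.65, edgeR, adjusted p = 0.028). It was 0.55 (adjusted p = 0.0044) without siControl library 1. The call was lost without siControl library 2 (adjusted p = 0.12), siControl library 3 (0.096), siPSF library 1 (0.063) or siPSF library 2 (0.068).

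PSMD2, which encodes the large scaffold subunit of the base, was at 249, 258 and 222 CPM in siControl and 223, 234 and 219 CPM in siPSF, and the groups overlapped. Its log2 change was -0.11 (SE 0.09, 95% interval -0.30 to 0.07, edgeR, adjusted p = 0.42). PSMD6, a lid subunit gene named here after its values were seen, was nearest to the threshold, at 46.0, 42.6 and 44.8 CPM in siControl and 56.4, 52.9 and 51.7 CPM in siPSF (log2 change 0.27, edgeR, adjusted p = 0.051).

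The activator and inhibitor genes were mixed, with 1 of 5 called higher and 0 called lower by edgeR and DESeq2 and 1 in each direction at an unadjusted p under 0.05. The median log2 change was 0.14, and -0.05 on rescaled FPKM, or 0.13 and 0.11 above all genes. PSME1 and PSME2 encode the alpha and beta subunits of the PA28 (11S) ring, which binds the ends of the 20S core and is induced by interferon gamma, PSME3 encodes the nuclear PA28 gamma, PSME4 the PA200 activator and PSMF1 the inhibitor PI31.

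PSME1 (gene ID 5720, chr14:24136194-24138962) had the smallest p of all members. Its level was 45.6, 48.7 and 41.4 CPM in siControl and 62.7, 65.1 and 65.2 CPM in siPSF. Every siPSF library lay above every siControl library. The mean rose from 45.2 ± 3.62 to 64.4 ± 1.40 CPM (SD, n = 3 each). This was a log2 change of 0.51 (SE 0.09, 95% interval 0.32 to 0.70, edgeR, adjusted p = 0.0027). Between 0.45 and 0.55 when any library was left out, it stayed called in each of those fits (largest adjusted p 0.012), and on rescaled FPKM it was 0.32 (limma, adjusted p = 0.022). PSME1 overlaps EMC9 on the opposite strand by 9 bases, and EMC9 had a log2 change of -0.20 (edgeR, adjusted p = 0.22).

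PSME2, the partner of PSME1 in the PA28 ring, was at 74.6, 78.6 and 65.5 CPM in siControl and 80.9, 88.1 and 71.9 CPM in siPSF, and the groups overlapped. Its log2 change was 0.14 (SE 0.10, 95% interval -0.08 to 0.36, edgeR, adjusted p = 0.38), and the difference between the 2 partners was not tested. PSME4 had the lowest log2 change of all members. It was at 106, 98.3 and 113 CPM in siControl and 89.2, 89.1 and 94.0 CPM in siPSF. All siPSF libraries lay below all siControl libraries, with a log2 change of -0.22 (SE 0.08, 95% interval -0.40 to -0.04, edgeR, adjusted p = 0.094), and on rescaled FPKM it was called lower, at -0.39 (limma, adjusted p = 0.029). PSME4 spans 107 kb, which makes it 1 of the 4 members that do not lie under 100 kb.

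The 7 assembly genes comprise PSMG1 to PSMG4, chaperones that build the alpha ring, and PSMD5, PSMD9 and PSMD10, chaperones of the ATPase base. PSMG2 and PSMG4 were called higher and 0 were called lower (edgeR and DESeq2, 3 higher and 0 lower at an unadjusted p under 0.05), with a median log2 change of 0.21 and a range from 0.00 (PSMG3) to 0.37. On rescaled FPKM the median was 0.01, with 1 called higher and 0 lower, and relative to all genes it was 0.17 there and 0.20 in edgeR. The summed level was 288.4, 276.3 and 269.4 CPM in siControl and 309.9, 297.9 and 302.2 CPM in siPSF, so that every siPSF library lay above every siControl library in the sum.

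PSMG4 (gene ID 389362, chr6:3254404-3268049), which works with PSMG3, was at 17.7, 18.1 and 18.2 CPM in siControl and 22.2, 21.9 and 25.7 CPM in siPSF. The groups did not overlap, and siPSF library 3 was the highest. The log2 change was 0.37 (SE 0.10, 95% interval 0.15 to 0.59, edgeR, adjusted p = 0.027). The call was kept without siPSF library 2 (adjusted p = 0.039) and lost without each of the others, with an adjusted p of up to 0.10. The ratio of count, as a share of the library, to FPKM departed in PSMG4 by up to 14.5% from its median over the libraries, with a highest value 1.26 times the lowest, and on FPKM it was called higher on both scales, with 0.49 (limma, adjusted p = 0.010) and, rescaled, 0.38 (limma, adjusted p = 0.029). It overlaps TUBB2B by 328 bases, which had a log2 change of 0.12 (edgeR, adjusted p = 0.63).

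PSMG2 (gene ID 56984, chr18:12658738-12725740), which works with PSMG1, was at 30.4, 27.5 and 28.6 CPM in siControl and 36.6, 34.4 and 34.5 CPM in siPSF. Again all siPSF libraries lay above the siControl libraries. The log2 change was 0.29 (SE 0.09, 95% interval 0.09 to 0.48, edgeR, adjusted p = 0.049), and the call was lost whichever library was left out, with an adjusted p of up to 0.20. It overlaps CEP76 by 40945 bases on the opposite strand, and CEP76 had a log2 change of -0.10 (edgeR, adjusted p = 0.58). PSMG3, the partner of PSMG4, was at 98.7, 92.7 and 82.7 CPM in siControl and 92.0, 93.9 and 87.4 CPM in siPSF, with a 95% interval of the log2 change from -0.19 to 0.19 (edgeR, adjusted p = 0.98).

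Per length, the members differed widely in level although they build a particle of fixed composition. In siControl the median FPKM was 171 for the standard beta genes, 77.7 for the 19S non-ATPase genes, 68.8 for the ATPase genes, 47.8 for the alpha genes, 43.0 for the activator and inhibitor genes and 17.6 for the assembly genes. Within the alpha genes the mean FPKM ran from 21.5 (PSMA4) to 338 (PSMA7), and within the standard beta genes from 27.6 (PSMB2) to 416 (PSMB4). The gene length implied by count and FPKM ran from 0.835 to 8.82 kb over the members, so the order depends on this divisor. In siControl, PSMA4 lay above PSMA3 in CPM (70.9 and 37.6) and below it in FPKM (21.5 and 36.7). PSMB2 likewise lay above PSMB6 in CPM (131 and 112) and below it in FPKM (27.6 and 126). The ATPase genes ran from 13.7 (PSMC6) to 231 (PSMC5), the non-ATPase genes up to 296 (PSMD4) and the assembly genes from 8.29 (PSMG4) to 64.7 (PSMG3). In 7 of the 46 members, PSMA4, PSMC6 and PSMG4 among them, the ratio of count, as a share of the library, to FPKM departed by over 5% from its median in some library, so the factor between count and FPKM was not constant.

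**Figure D4:**
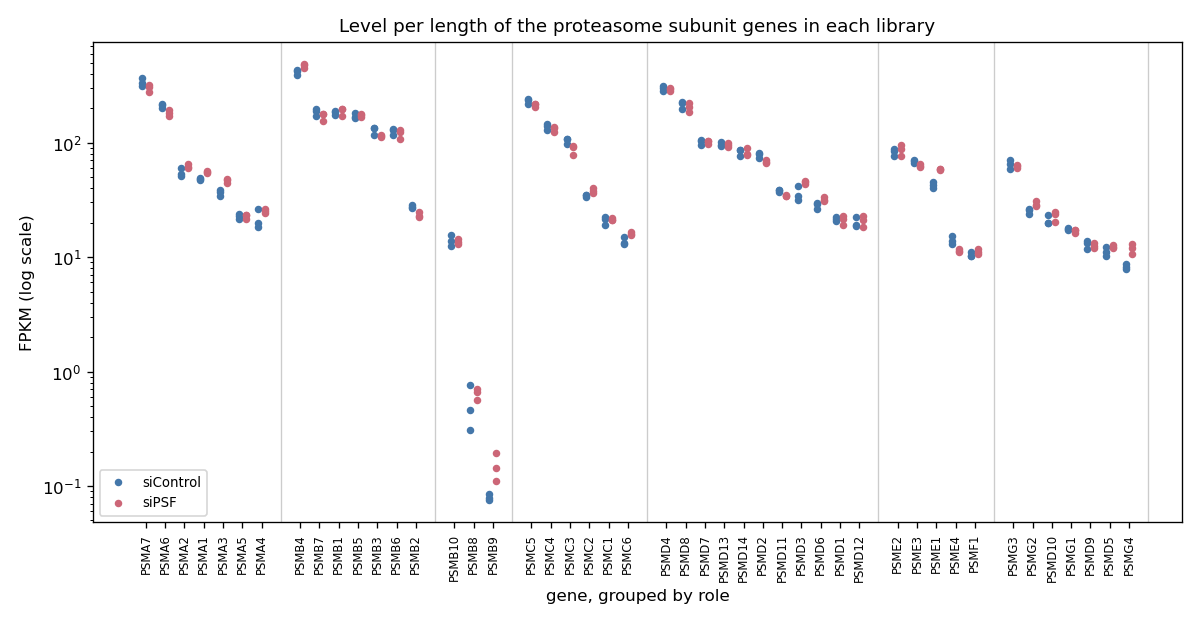
The FPKM (log axis) of each of the 46 members is plotted in each siControl library (blue) and siPSF library (red), grouped by role and ordered by level within a group. The standard subunits range from about 13.7 (PSMC6) to 416 (PSMB4) FPKM in siControl, and PSMB8 and PSMB9 lie below 1 FPKM.

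The members of lower level had the higher log2 changes. The members were divided at the middle of their mean CPM over all 6 libraries, a division chosen after the values were seen. The 23 members from 0.134 to 95.9 CPM had a median log2 change of 0.22, with 22 values above 0 and all 6 calls. The 23 members from 98.0 to 449 CPM had a median of 0.00, with 11 values above 0 and no call. Protein-coding genes under 100 kb in the same bands, from 10 CPM up, had medians of 0.04 (6272 genes) and 0.01 (1707 genes), and 6.66% and 6.44% of them were called higher. Across the 46 members Spearman's rho of the log2 change with level was -0.58, with GC content -0.31 and with gene length -0.01. Across the 44 members with at least 10 CPM these were -0.53, -0.38 and 0.08. Across protein-coding genes under 100 kb with at least 10 CPM they were -0.05 and -0.15 for level and length (8212 genes) and -0.07 for GC content (8114 genes). These are descriptions across genes that share the same 6 libraries, and genes are not independent replicates.

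**Figure D5:**
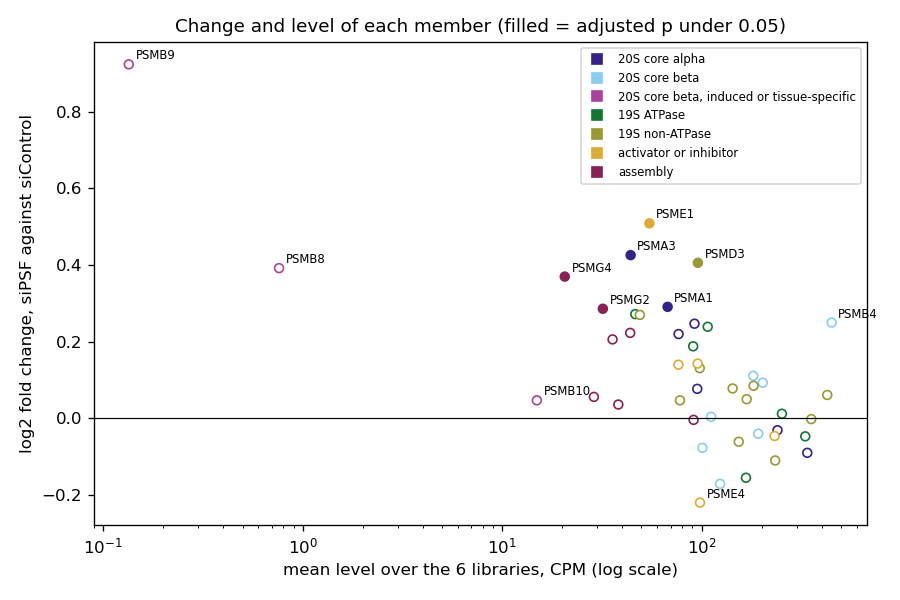
The log2 change of each of the 46 members (edgeR, siPSF against siControl) is plotted against its mean level over the 6 libraries in CPM (log axis), coloured by role, with filled points for an adjusted p under 0.05. All 6 filled points lie below 98.0 CPM, and the points above that level scatter around 0.

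Genes that work with the proteasome but do not carry a PSM name were listed beside the members. The counts of these lists are to be read beside the shares over all tested genes. Of those, 6.65% were called higher and 8.27% lower by edgeR, and 14.4% were higher and 15.4% lower at an unadjusted p under 0.05. Of 12 subunits and partners, 2 were called higher and 0 lower by edgeR (3 higher and 0 lower at an unadjusted p under 0.05, and 2 and 0 called by DESeq2), with a median log2 change of 0.12 that was -0.05 on FPKM and -0.16 on rescaled FPKM. Relative to all genes the median was 0.11 in edgeR, 0.01 on FPKM and -0.0033 on rescaled FPKM. SEM1, the smallest 19S subunit, was at 47.9, 42.9 and 42.2 CPM in siControl and 56.0, 53.2 and 53.7 CPM in siPSF (log2 change 0.29, SE 0.09, edgeR, adjusted p = 0.041). TXNL1, a thioredoxin bound to the cap, was at 126, 119 and 119 CPM in siControl and 142, 140 and 160 CPM in siPSF (log2 change 0.28, SE 0.08, edgeR, adjusted p = 0.040). The groups did not overlap in either gene. SEM1 was called in 2 of the 6 fits that left out a library and TXNL1 in 0, and limma on FPKM gave TXNL1 -0.27 (adjusted p = 0.64). That sign rests on siControl library 3. The FPKM of TXNL1 was 18.9, 16.7 and 51.3 in siControl and 19.6, 20.4 and 23.1 in siPSF. Its ratio of count, as a share of the library, to FPKM departed by up to 63.9% from its median.

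Of 10 genes of the transcription of proteasome genes, 0 were called higher and 2 lower (edgeR and DESeq2, 1 higher and 2 lower at an unadjusted p under 0.05), and the median was 0.01. MAFF, a small MAF protein gene, was at 6.71, 7.86 and 7.23 CPM in siControl and 4.92, 5.21 and 4.70 CPM in siPSF, so that its log2 change was -0.56 (SE 0.13, edgeR, adjusted p = 0.011). DDI2, the protease that activates NRF1, was at 52.7, 53.7 and 63.1 CPM in siControl and 45.9, 44.9 and 44.1 CPM in siPSF, with a log2 change of -0.33 (SE 0.09, edgeR, adjusted p = 0.033). Both genes fell in every siPSF library relative to every siControl library. The call of MAFF was lost without siControl library 2 (adjusted p = 0.064), and DDI2 was called in 2 of the 6 fits that left out a library (adjusted p up to 0.084). NFE2L1 itself, named after its values were seen, was at 431, 486 and 476 CPM in siControl and 477, 519 and 351 CPM in siPSF, with the lowest and the highest value both in siPSF (log2 change -0.05, 95% interval -0.32 to 0.23, edgeR, adjusted p = 0.85).

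Of 16 genes of ubiquitin, its E1 enzymes and shuttle factors, 2 were called higher and 1 lower (edgeR), and the median was 0.00. RPS27A, which encodes ubiquitin fused to a ribosomal protein, was at 686, 610 and 535 CPM in siControl and 959, 960 and 1030 CPM in siPSF (log2 change 0.69, SE 0.10, edgeR, adjusted p = 9.4e-04). The polyubiquitin gene UBB, named after its values were seen, had a log2 change of 0.18 in edgeR (adjusted p = 0.21). FAF1, an adaptor of the VCP unfoldase whose gene spans 523 kb, was at 99.4, 94.1 and 91.2 CPM in siControl and 61.4, 59.9 and 58.7 CPM in siPSF (log2 change -0.66, SE 0.08, edgeR, adjusted p = 3.0e-04). RPS27A and FAF1 were called in all 6 fits that left out a library.

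Of 17 measured genes of interferon-induced antigen processing, 1 was called higher and 0 lower (edgeR, DESeq2 called 2 higher and 0 lower). At an unadjusted p under 0.05, 5 were higher (29.4%, with 14.4% of all tested genes) and 0 lower. A log2 change above 0 was seen in 16 of them, beside 51.6% of all genes tested, and the median was 0.23. The 2 largest changes, among those 5, rest on few counts a library: IFIT1 (1.31, 3 to 20 counts) and ERAP2 (1.13, 12 to 49 counts). With limma 11 of them had a value, and their median was 0.08 on FPKM and -0.04 on rescaled FPKM, or 0.13 and 0.12 above all genes. TAP2, a subunit of the peptide transporter that receives proteasome products, was at 10.7, 8.63 and 7.69 CPM in siControl and 15.0, 14.9 and 12.1 CPM in siPSF. The groups did not overlap, and its log2 change was 0.64 (SE 0.14, edgeR, adjusted p = 0.010). The call was lost without siControl library 2 or 3, with an adjusted p of up to 0.058. TAP1, its partner, named after its values were seen, was at 2.06, 2.02 and 1.33 CPM in siControl and 2.75, 3.85 and 2.05 CPM in siPSF, with a log2 change of 0.67 (SE 0.24, edgeR, adjusted p = 0.081).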

How the data were processed

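RNA-seq of SH-SY5Y cells, 3 siControl and 3 siPSF libraries, was analysed, and each column was assigned from the sample titles. The authors deposited 1 table with a count (reads per gene, not normalized) and an FPKM value for each gene and library. The paper's methods name a TruSeq RNA kit, rRNA removal with Bowtie 2, mapping to hg38 with TopHat and tags counted on RefSeq mRNAs, while the labels name a stranded kit and the submitters' processing notes list Trimmomatic, HISAT2 2.1.0, StringTie 2.1.3b and GRCh38. The deposited FPKM values, which the methods call RPKM, were divided by exon length and mapped reads by the authors. No count is below 1, and genes that lack reads in some library are not analysed here. Which of the 2 pipelines made the table, and whether strand was used, is not given in the sources used here.

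Counts were filtered with filterByExpr, normalized by TMM and compared by the quasi-likelihood test of edgeR, with no block for the replicate number (siPSF against siControl, 19694 genes, Benjamini-Hochberg adjustment over all of them, called at an adjusted p under 0.05). The biological coefficient of variation was 12.6%, and TMM factors ran from 0.964 to 1.053. Replicate libraries differed by more than the sampling noise (chi-square per degree of freedom of at least 22.61). The FPKM alternatives used limma on log2(FPKM + 0.5) for genes with a mean of at least 0.5 FPKM, which leaves out PSMB9. Such fold changes understate the change of low genes. Library medians were taken on log2(CPM + 0.01). The alternatives were leaving out each library, a replicate block, DESeq2 size factors, no filter, DESeq2's Wald test, protein-coding genes only and limma on FPKM. The fits were tested on simulated data, with 100 genes changed by a log2 value of 0.5 and 100 by 1, up or down. There edgeR called 24% of the genes changed by 0.5 and 86.9% of those changed by 1. Of its calls, 2.65% were false. Every simulated gene had the same coefficient of variation, and far fewer genes were changed than edgeR called in the data. These shares are therefore not the power for the members. Most changes of the members were below 0.5, and a member that was not called may still have changed. Gene spans and promoters came from RefSeq (GRCh38.p14), and GC content and overlaps from GENCODE version 44. Fits ran in R 4.3.3 (DESeq2 1.42.0, edgeR 4.0.16 and limma 3.58.1) and summaries in Python 3.11.15 (scipy 1.17.1, pandas 2.3.3).

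The members and lists were chosen with earlier results of these data known, so no list was tested and counts stand beside those over all genes. Genes named are SFPQ, every called member, the highest and lowest log2 fold change of each member group, PSMB5 to PSMB10, and in each further list every called gene. Any other gene was named after its values were seen. Not every gene chosen in this way is reported here.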

Additional observations from a re-analysis of the deposited data

How the results depend on the processing

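The count of members called higher, 6, ranged from 1 to 6 when a library was left out, and was 3 with limma on FPKM and 2 on rescaled FPKM, where 6 were called lower in place of 0; rescaling was chosen after the data were seen. The median log2 fold change of the members, 0.08, was 0.00037 with limma on FPKM and -0.11 on rescaled FPKM. The median of all genes in these fits, which held fewer genes on FPKM, was 0.01, -0.06 and -0.16. The members thus stood 0.07, 0.06 and 0.05 above it. Among the lists, leaving out a library gave 0 to 1 partners called higher, 0 to 2 transcription genes called lower and 0 to 1 higher, and 0 to 2 interferon genes called higher. Limma on FPKM called 0 partners higher. On rescaled FPKM 0 partners were called higher and 1 lower, and 1 ubiquitin gene higher and 3 lower. DESeq2's Wald test called 2 interferon genes higher. The deposited FPKM values summed to between 424366 and 454381 in the siControl libraries and between 473437 and 482571 in the siPSF libraries. Rescaling to the same sum therefore lowered siPSF values relative to siControl values. The cause of the unequal sums and of the other shifts was not tested.

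A replicate block gave 11 members called higher and 2 interferon genes, but same-numbered libraries deviated together only in part (correlations of -0.02, 0.25 and 0.10, and not every library correlated best with its own number), so the numbers were not taken as a pairing.

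Named genes that changed sign had values near 0 or values from FPKM. When a library was left out, PSMG3 ran from -0.07 to 0.05, PSMB7 from -0.12 to 0.02, PSMB6 from -0.07 to 0.07 and PSMB10 from -0.05 to 0.14. PSMB6 was -0.0015 without a filter and -0.0047 in DESeq2. Limma on FPKM gave PSMB6 -0.07, PSMB10 -0.02 and TXNL1 -0.27, and on rescaled FPKM PSMB5 -0.10, PSMB6 -0.19, PSMB10 -0.13 and TXNL1 -0.38. None of these values passed the test, and those of TXNL1 include its high FPKM of 51.3 in siControl library 3.

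SFPQ kept its direction and its call under every alternative run. The difference in the ratio of PSMB8 to PSMB5 kept its direction, from 0.06 to 0.77 when a library was left out, in a design too small to pass the threshold. PSMB9 rests on 11 to 23 counts a library and PSMB8 on 58 to 120, so their intervals are wide.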

Other observations

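PSMC2, PSMF1 and PSME4 each overlap a gene that edgeR called, while the other tested genes that overlap a member were not called. Of all tested genes, 6.65% were called higher and 8.27% lower. The share called among the overlapping genes was not computed, so these pairs are not a result about the members. PSMC2, an ATPase gene at 101, 96.1 and 98.1 CPM in siControl and 122, 116 and 110 CPM in siPSF, had a log2 change of 0.24 (edgeR, adjusted p = 0.061), and DNAJC2, a ribosome-associated chaperone gene that overlaps it on the opposite strand, rose by 0.40 (edgeR, adjusted p = 0.027). PSMF1, the gene of the inhibitor PI31, had a log2 change of 0.14 (edgeR, adjusted p = 0.28), and TMEM74B, which overlaps it on the opposite strand, rose by 0.66 from 4.39 to 6.96 CPM (edgeR, adjusted p = 0.034). PSME4 overlaps ACYP2 by 156 bases, and ACYP2 had a log2 change of -0.63 (edgeR, adjusted p = 0.0052), from 7.78 to 5.03 CPM. In all, by the gene spans of GENCODE, 18 of the 46 members, 4 of the 6 called ones among them, overlap a gene of the table on the opposite strand. The share of all genes with such an overlap was not computed. These pairs were named after their values were seen, and the part of shared reads in them was not tested.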
